A study of Gallus gallus with 6 samples.

Results

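Molecular chaperones were read out in chick epiblast during an assay for the induction of sensory placode progenitors. The genes are those whose symbol in the array's platform annotation starts with HSP followed by A, B, D, E, H or a digit, or with DNAJA, DNAJB or DNAJC and a number, each on a probe set with a single symbol, leaving out HSPG2. This gave 64 genes of 13050 named on the array, 24 of them HSP and 40 DNAJ genes, on 127 probe sets. In each of 3 biological repeats, lateral head mesoderm of stage HH6 chick embryos had been grafted into hosts at stage HH4-, in their area opaca (the rim outside the embryo proper). The induced samples are the epiblast that lay under the graft for 12 hours, collected after the mesoderm had been taken off, and the 3 control samples are area opaca of the other side of the blastoderm, where no graft lay. Both groups are thus extraembryonic tissue of grafted hosts, and the sources used here name neither a strain nor the number of embryos behind a sample. The p-values therefore measure the spread between these samples, which may be technical.

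HSP70 proteins bind exposed hydrophobic stretches of unfolded proteins and release them in a cycle driven by ATP. J-domain proteins of the DNAJ classes deliver clients to HSP70 and stimulate its ATP hydrolysis, while HSP110 proteins exchange the nucleotide. HSP90 acts later on partly folded clients such as kinases and steroid receptors, small heat shock proteins hold unfolded proteins without ATP, and the chaperonin of mitochondria encloses its clients in a cage. Each compartment has its own set: the cytosolic genes are known for the heat shock response and the endoplasmic reticulum genes for the unfolded protein response, while the mitochondrial ones serve protein import and folding. Members were sorted into these compartments from textbook knowledge, with those of vesicles, nucleus or unsure location kept apart.

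Signals of 37690 probe sets had been deposited for 1 Affymetrix array per sample. The 2 arrays of repeat 1 were brighter than the other 4 (median signals 17.7 and 18.35 units against 7.5 to 9.6). Signals under 16 units made up 46.9% to 63.7% of each array. Values below are log2(signal + 16) after quantile normalization, which brings all arrays to the same distribution, and differences are on that scale, which understates the change of weak genes. The epithelial genes EPCAM and CDH1 had means of 11.44 and 10.84 in the controls and 11.50 and 10.85 in the induced samples, so both tissues carried these epithelial transcripts. Of the 10138 genes tested by limma, 46.8% lay below the controls. An unadjusted p under 0.05 was found for 11.6% of them, and 0.375% passed (adjusted p under 0.05). Of 18 tested genes of a blood and endothelium list, 16 lay below the controls and 14 (77.8%) had an unadjusted p under 0.05, all lower. By limma 3 fell over all genes tested (log2 fold changes of -1.74 for TAL1, -1.84 for KDR and -2.18 for LMO2). The summed signal of that list was 5703 to 5848 units (controls) and 1817 to 3232 units (induced), and none of its genes was listed at 0. Sums here and for the lists below are of normalized values turned back to a linear scale, not of deposited signals. Of 17 tested genes of yolk sac endoderm and hypoblast, 14 lay below the controls and 3 above, with none passing over all genes by limma. An unadjusted p under 0.05 was found for 10 (58.8%), all lower. The lowest p were those of TTR (log2 fold change -1.53, limma adjusted p = 0.0527), HNF4A (-1.04, adjusted p = 0.147) and GATA4 (-0.67, adjusted p = 0.153). The summed signal of this list was 3646 to 8987 units (controls) against 2418 to 3127 (induced). The list of mesoderm and heart-forming tissue would include transcripts of any graft cells left behind, whose presence was not tested. Its sum was 1493 to 3051 units (controls) and 2241 to 3488 units (induced). Of 15 tested genes 1, NKX2-5, rose (log2 fold change 1.90), while 9 lay below and 6 above the controls, with a median of -0.10. An unadjusted limma p under 0.05 was found for NKX2-5, VIM and MESP1, all higher, and for MYOCD, ACTC1 and TNNT2, all lower. Of 12 tested epithelial and ectodermal genes 11 lay above the controls and 1, EYA2, rose (log2 fold change 2.46). EPCAM and CDH1 belong to that list, at 0.06 and 0.01, as do IRX1 (2.47) and OTX2 (2.08), which did not pass. In a bulk sample fewer cells of a type and less RNA per cell cannot be told apart.

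None of the chaperone genes passed the test of induced epiblast against control area opaca. Of the 64 genes 58 had a probe set above the filter on low signal, and 0 of the 58 had a limma adjusted p under 0.05, where 0.375% of the 10138 genes tested passed (0.197% higher and 0.178% lower). At an unadjusted p under 0.05 there were 3 (5.17%), DNAJB8, DNAJC1 and DNAJC18, against 11.6% of all genes. Values of the 2 groups lay fully apart in 9 of the 58 (15.5%), against 16.5% of all genes. The median log2 fold change of the 58 was 0.03, beside 0.02 over all genes, and 47 of them (81.0%) differed by less than 0.25 in either direction, as did 68.7% of all genes. A difference of 0.5 or more before rounding was seen in 1 member, DNAJB8, and in 9.82% of all genes tested, while DNAJC7 (0.4999) and DNAJC18 (-0.4976) lay just under that size. Among the 11 members with a mean level of 10 or more, the median size of the difference was 0.06, against 0.08 in the 796 genes of that level. Among the 16 with a level of 8 to 10 it was 0.08, against 0.14 in 2458 genes, and among the 15 at 6 to 8 it was 0.10, against 0.18 in 3052. Among the 16 below 6 it was 0.17 in both the members and all 3832 genes. These members had been chosen with earlier results of these data known, so the shares are descriptions. For 25 of the 58 the 95% interval of the difference lay within 0.5 of 0 on the log2 scale. For the other 33 a larger difference is within what 3 arrays a group allow.

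**Figure D1:**
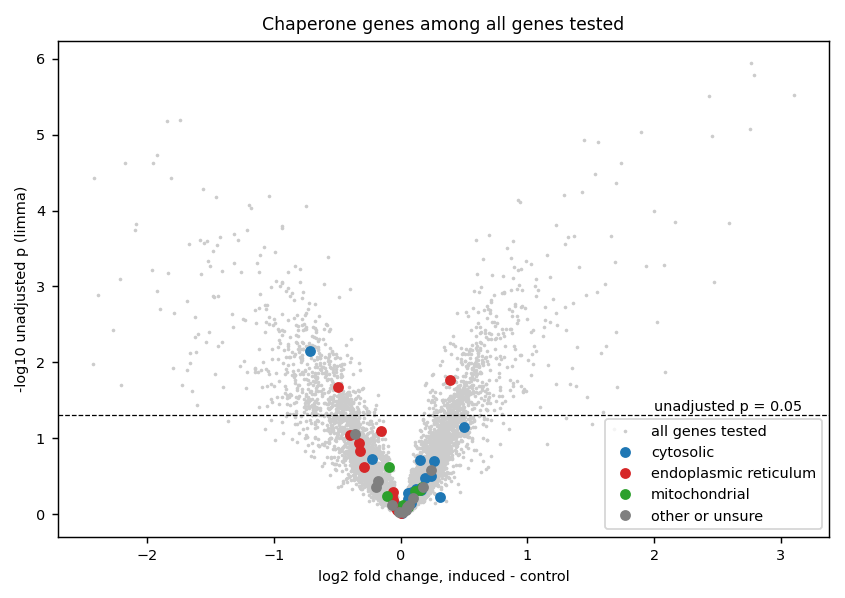
Log2 fold change (x axis, induced minus control) against -log10 of the unadjusted limma p (y axis) for all 10138 genes tested in grey and the 58 chaperone genes in the colour of their compartment. DNAJB8, DNAJC18 and DNAJC1 lie above the dashed line at an unadjusted p of 0.05, and the other 55 lie below it.

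The cytosolic HSP70 and HSP90 genes gave nearly the same signal in both tissues. HSPA8, the constitutive HSP70 of the cytosol, read 11.15, 11.23 and 11.31 in controls 1 to 3 and 11.14, 11.33 and 11.39 in induced samples 1 to 3. The groups overlapped, with a log2 fold change of 0.06 (SE 0.085, 95% interval -0.13 to 0.24). In deposited units these were 3545, 1948 and 2240 in the controls and 3389, 2130 and 1947 in the induced samples, so that the brightness of repeat 1 was far larger than the difference between the tissues. HSPA2, listed in RefSeq with the synonym HSP70, read 10.40, 10.18 and 10.45 in the controls and 10.42, 10.20 and 10.59 in the induced samples. Its values overlapped as well (log2 fold change 0.06, interval -0.22 to 0.34).

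HSP90AA1, one of the 2 cytosolic HSP90 genes, read 11.32, 11.18 and 11.26 in the controls and 11.25, 11.31 and 11.15 in the induced samples. With a log2 fold change of -0.01 (SE 0.077) and an interval of 0.880 to 1.11 as a fold, it was among the most narrowly determined members. HSP90AB1, the other cytosolic HSP90, read 10.20, 10.30 and 10.50 in the controls against 10.44, 10.45 and 10.31 (log2 fold change 0.07, interval -0.17 to 0.31). The HSP110 genes, whose products exchange the nucleotide of HSP70, also showed small differences. HSPA4 had a log2 fold change of 0.05 (SE 0.131), HSPA4L of 0.06 (SE 0.149) and HSPH1, with 87.7 to 294.5 deposited units, of 0.09 (SE 0.187). All of these 3 overlapped between the groups. HSPA14, an HSP70 that works at the ribosome, had means of 6.92 and 7.11 with overlap (log2 fold change 0.19, SE 0.19). DNAJC2, its J-domain partner at the ribosome in mammals, read 9.74, 9.59 and 9.69 in the controls and 9.80, 9.91 and 9.77 in the induced samples. All its induced values lay above the controls, by 0.15 (SE 0.111, limma adjusted p = 0.664). HSPA12A, a distant HSP70 relative, read 6.31, 6.25 and 6.37 against 6.49, 6.81 and 6.42, again without overlap, at 0.26 (SE 0.19, adjusted p = 0.673), and 0.14 without induced 2.

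**Figure D2:**
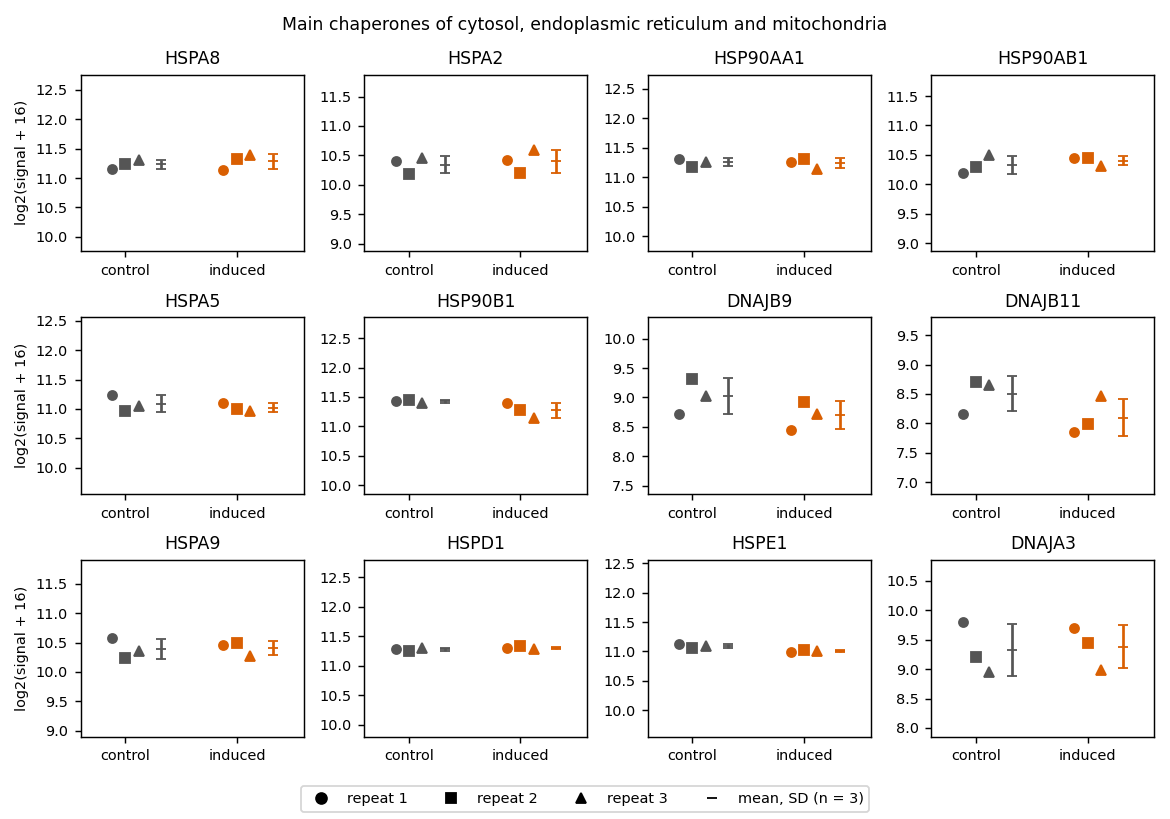
Values of 12 chaperone genes by array, as log2(signal + 16) after quantile normalization on y axes that all span 3 units, with the mean and SD of the 3 arrays of a group beside the points. The values of HSPA8, HSPA2, HSP90AA1, HSP90AB1, HSPA5, HSPA9 and HSPD1 overlap between the groups, and those of HSP90B1 and HSPE1 lie slightly lower in all induced samples.

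Of the small heat shock genes, HSPB1 and HSPB8 gave signals near the floor of the arrays, most others lay below the filter, and HSPB9 had 44.6 to 604.9 deposited units. HSPB1, the best known of them, read 5.83, 5.16 and 5.74 in the controls and 5.84, 5.62 and 5.97 in the induced samples, that is 13.6 to 69.1 deposited units. The groups overlapped (log2 fold change 0.24, interval -0.26 to 0.73). HSPB8, which in mammals works with the co-chaperone BAG3, read 5.17, 5.31 and 5.17 in the controls and 5.06, 4.88 and 5.02 in the induced samples. Its induced values were all lower, by 0.23 (SE 0.16, adjusted p = 0.661), with 2 of 6 arrays under 16 units. HSPB2, HSPB3, HSPB7 and HSPB7L lay below the filter, with at most 15.7, 8.3, 14 and 22.6 units on any array. HSPB7 is known from heart and muscle. The values of HSPB9 are described with the genes that varied between repeats.

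Most cytosolic J-domain genes showed small differences, with DNAJC7 and DNAJB8 as exceptions. DNAJA1, a general HSP70 co-chaperone, read 8.93, 8.90 and 9.03 in the controls and 8.89, 9.35 and 8.98 in the induced samples, with overlap. Its log2 fold change was 0.12 (SE 0.156), and 0.10 in its other probe set. DNAJA2, of the same class, had means of 8.91 and 8.89 (log2 fold change -0.02, SE 0.134). DNAJB6, known to hold back aggregation of polyglutamine proteins, had 0.09 (SE 0.128), and its 2 other probe sets gave -0.03 and -0.0041. DNAJC7, which binds both HSP70 and HSP90, had the highest difference of the cytosolic members. It read 5.54, 5.72 and 4.89 in the controls and 5.81, 5.67 and 6.16 in the induced samples, with overlap, at a difference of 0.50 (SE 0.248, limma adjusted p = 0.486). Its second probe set gave 0.50 as well, with 5.40, 4.69 and 5.22 against 5.86, 5.77 and 5.18. Without control 3 the difference on the first probe set was 0.25. The probe sets thus gave the same size, while the low control was sample 3 in one and sample 2 in the other.

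DNAJB8, a J-domain protein studied in mammals for holding back aggregation, had the lowest unadjusted p of all members. It read 5.27, 5.65 and 5.27 in the controls and 4.71, 4.33 and 5.01 in the induced samples, so that all induced values lay below the controls. The log2 fold change was -0.71 (SE 0.212, unadjusted p = 0.0072, limma adjusted p = 0.215). In deposited units the signals were 36.4, 24 and 20 in the controls and 16.7, 3.0 and 10.6 in the induced samples, which is close to the floor of the arrays. The size therefore depended on the added constant, with -1.45 for 1 and -0.29 for 64 in place of 16. The second probe set of DNAJB8 gave -0.14 and overlapped between the groups, and the mean of both gave -0.43. Within repeat 1 the difference was -0.56, and over repeats 2 and 3 -0.79 (adjusted p = 0.406). It passed in 1 of the 17 other settings that tested it, where arrays were not normalized and the repeat number was a block (adjusted p = 0.0186). DNAJB5 also had no overlap, but at levels of 4.66 to 4.75 and a log2 fold change of -0.05 (SE 0.142), it was under 16 units on 5 of 6 arrays. Among all 24 cytosolic members that passed the filter, of 28, 18 lay above and 6 below the controls, with a median of 0.07. The share below was 25.0%, against 46.8% of all genes tested. The median was -0.02 without normalization and 0.00 with arrays centred on their median, where the medians of all genes were -0.04 and -0.02. Relative to all genes it was 0.05 in the main setting and 0.02 in both of these.

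The members of the endoplasmic reticulum lay mostly on the lower side in the induced epiblast, by small amounts. Of 14 genes, all of which passed the filter, 11 had a mean below the controls (78.6%), against 46.8% of all genes tested, and the median was -0.07, beside 0.02 over all genes. None passed by limma, and 2 had an unadjusted p under 0.05 (14.3%, against 11.6% of all genes). Of these DNAJC1 lay above and DNAJC18 below the controls. The median over the 14 genes relative to the control mean was -0.11, 0.06 and 0.01 in controls 1 to 3 and -0.18, -0.10 and -0.11 in induced samples 1 to 3. Control 1 thus stood with the induced arrays. The median difference was -0.08 within repeat 1 and -0.10 over repeats 2 and 3. Leaving out control 1 gave -0.15, and none of the 18 other settings turned the sign. Relative to the control mean, the median over the yolk sac endoderm list was -0.12, -0.36 and 0.22 in controls 1 to 3. In the same induced arrays it was -0.66, -1.09 and -0.97. The part of that tissue in the values of the endoplasmic reticulum members was not tested.

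HSPA5, also called BiP, is the HSP70 of the endoplasmic reticulum and the classical target of the unfolded protein response. It read 11.25, 10.97 and 11.05 in the controls and 11.11, 11.00 and 10.97 in the induced samples, with overlap and a log2 fold change of -0.06 (SE 0.091, interval 0.833 to 1.10 as a fold). HSP90B1, or GRP94, the HSP90 of this compartment, read 11.43, 11.45 and 11.40 in the controls and 11.40, 11.28 and 11.14 in the induced samples. The groups did not overlap, though induced sample 1 lay next to control 3. The log2 fold change was -0.15 (SE 0.079, interval 0.796 to 1.02 as a fold, adjusted p = 0.507), -0.03 within repeat 1, and -0.22 over repeats 2 and 3. Without induced 3 it was -0.09. Its second probe set gave -0.22 with overlap.

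Of the J-domain proteins that serve HSPA5 in the lumen, DNAJB9 and DNAJB11 had the larger differences. DNAJB9, a co-chaperone induced by unfolded proteins, read 8.73, 9.32 and 9.03 in the controls and 8.45, 8.92 and 8.72 in the induced samples. Control 1 lay within the induced range, and the log2 fold change was -0.33 (SE 0.19, adjusted p = 0.573). It was -0.18 without control 2 and -0.21 without induced 1. The 2 other probe sets of DNAJB9 gave -0.31, without overlap, and -0.38. DNAJB11, which binds unfolded clients together with HSPA5, read 8.16, 8.70 and 8.65 against 7.85, 7.99 and 8.46, again with control 1 inside the induced range. Its log2 fold change was -0.40 (SE 0.216, adjusted p = 0.533), -0.31 within repeat 1 and -0.45 over repeats 2 and 3. DNAJC3, an HSPA5 co-chaperone of the same response, read 9.66, 9.83 and 9.91 against 9.55, 9.78 and 9.86, a log2 fold change of -0.07 (SE 0.128), while its second probe set gave -0.32. DNAJC10, a J-domain protein that reduces disulfide bonds, had -0.03 (SE 0.153). HSPA13, an HSP70 relative of microsomes, had -0.32 (SE 0.207) on a probe set with signals under 16 units in all induced samples, and 0.01 on its other one. The first was -0.50 without control 1, -0.19 without control 3 and -0.20 without induced 1.

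DNAJC1 and DNAJC18, both proteins of the membrane of the endoplasmic reticulum, went opposite ways. DNAJC1, which docks HSPA5 near the translating ribosome, read 8.52, 8.44 and 8.48 in the controls and 8.84, 8.87 and 8.89 in the induced samples. The gap between the groups was wide beside a spread of 0.04 and 0.02 (SD of 3 arrays each). The log2 fold change was 0.39 (SE 0.136, unadjusted p = 0.017, adjusted p = 0.298). The moderated SE is larger than these SDs because limma draws the variance of each gene toward that of other genes of its level. Within repeat 1 the difference was 0.33 and over repeats 2 and 3 it was 0.42, but the second probe set of DNAJC1 gave 0.17 with overlap. The probe set with the larger difference is of a kind that can match several transcripts. DNAJC18 read 9.14, 9.09 and 8.83 in the controls and 8.53, 8.21 and 8.82 in the induced samples, where induced 3 nearly reached control 3. Its log2 fold change was -0.50 (SE 0.183, unadjusted p = 0.0215, adjusted p = 0.332), and its 3 other kept probe sets gave -0.24, -0.19 and -0.17, all with overlap. With the mean of its probe sets it was -0.27. The remaining members of this compartment, DNAJB12, DNAJB14, DNAJC14, DNAJC16 and DNAJC25, had log2 fold changes of -0.29 (DNAJC16) to 0.05 (DNAJB12), with overlap.

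All 8 mitochondrial chaperones differed by less than 0.25 between the groups. HSPD1, the chaperonin of the matrix, read 11.29, 11.25 and 11.30 in the controls and 11.30, 11.33 and 11.28 in the induced samples. Its log2 fold change was 0.02 (SE 0.065), the smallest SE of all members, with an interval of 0.917 to 1.12 as a fold, and its second probe set gave -0.01. HSPE1, the lid of that chaperonin, read 11.13, 11.06 and 11.10 in the controls and 10.99, 11.02 and 11.00 in the induced samples. The groups did not overlap, but the log2 fold change of -0.09 (SE 0.071, interval -0.25 to 0.07, adjusted p = 0.711) did not pass. HSPA9, the HSP70 of the matrix, read 10.57, 10.24 and 10.35 against 10.46, 10.50 and 10.26, a log2 fold change of 0.02 (SE 0.115). Its second probe set gave -0.17 (SE 0.199) with overlap, and the sign for the gene turned in 8 of the 18 other settings.

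Their J-domain partners gave the same picture with wider intervals. DNAJA3, the co-chaperone of HSPA9, had 0.06 (SE 0.239) and 2 other probe sets at -0.03 and 0.34, of which the last had no overlap. DNAJC15 and DNAJC19, parts of the import motor at the inner membrane, had log2 fold changes of 0.16 (SE 0.208) and -0.11 (SE 0.184), at signals that reached 77.6 and 43.2 units at most, and these were the highest and the lowest of the compartment. DNAJC11, of the cristae-organizing complex, and DNAJC30 had 0.11 and 0.15. All 8 mitochondrial genes passed the filter, and none passed by limma over all genes, against 0.375% of all genes. An unadjusted p under 0.05 was found for 0, against 11.6% of all genes. Of the 8, 6 lay above and 2 below the controls (25.0% below, against 46.8% of all genes tested). Their median was 0.04, -0.05 within repeat 1 and 0.08 over repeats 2 and 3. Taken as a difference between the array medians, repeat 1 gave 0.04, so its sign depended on the measure. Relative to all genes the median was 0.02, and -0.03 both without normalization and with arrays centred on their median, so its sign followed the scaling.

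Members of other or unsure location comprised 14 genes, of which 12 passed the filter. Their differences ran from -0.36 to 0.24 with a median of 0.03. By limma 0 of the 12 passed, against 0.375% of all genes, and 0 had an unadjusted p under 0.05, against 11.6%. DNAJC24, a J-domain protein of diphthamide synthesis, was the lowest, with 5.77, 5.68 and 5.44 in the controls against 5.01, 5.33 and 5.46 (log2 fold change -0.36, SE 0.193, adjusted p = 0.528). Induced 3 lay just above control 3, and without induced 1 the difference was -0.23. DNAJC13, of endosomes, was the highest at 0.24 (SE 0.2). DNAJC5 of synaptic vesicles and DNAJC6, or auxilin, which uncoats clathrin vesicles, had -0.19 and -0.18, and the histone chaperone DNAJC9 had 0.06. The second probe set of DNAJC17 gave 0.41 without overlap (unadjusted p = 0.0374) near the floor of the arrays, against 0.17 in the one that stands for the gene. DNAJC5B and the cytosolic DNAJB13 lay below the filter with at most 9.3 and 13.5 units. HSPB11 and HSPBAP1, which match by symbol without belonging to these chaperone families, had 0.04 and 0.05. No probe set carried the symbol of DNAJB1.

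**Figure D3:**
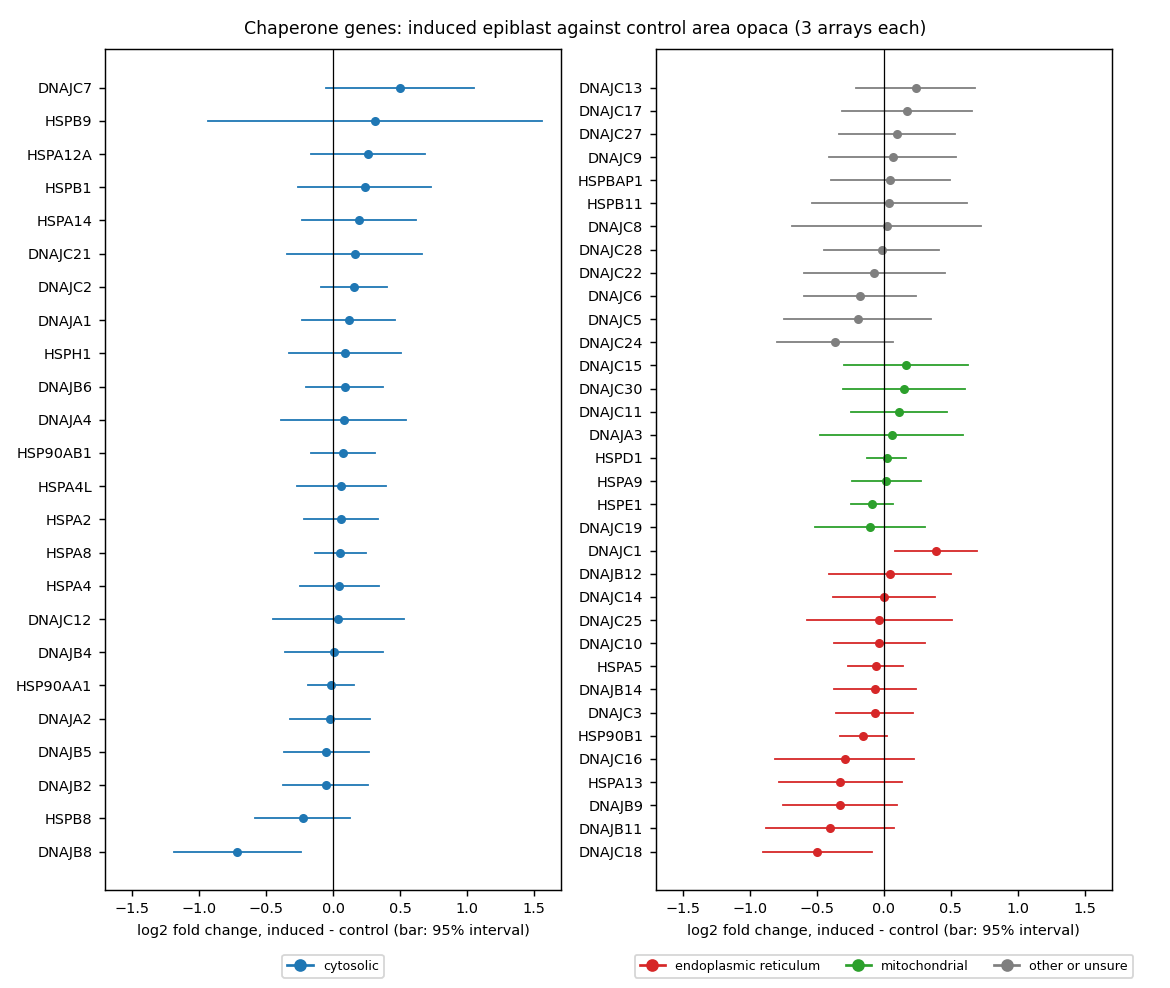
Log2 fold change (induced minus control, x axis) with its 95% limma interval for each of the 58 chaperone genes tested, cytosolic members on the left and the other compartments on the right, sorted within a compartment. The intervals of DNAJB8, DNAJC1 and DNAJC18 leave out 0, the other 55 include it, and HSPB9 has the widest.

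Over single probe sets the picture was the same. Of the 127 probe sets 104 passed the filter and 0 passed the test by limma, against 0.0973% of all 22614 probe sets, while 4 had an unadjusted p under 0.05 (3.85%, against 9.76%). The groups did not overlap in 12 of the 104 (11.5%, against 14.4%). Of the 32 genes with several kept probe sets, 19 had the same sign in all of them. By their suffix, 40 of the 104 may match more than 1 transcript, as may 18 of the 58 that stand for a gene, among them those of HSPA8, HSPA9 and HSPE1.

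Some members differed more between repeats than between tissues. These were chosen after their values were seen. HSPB9, a small heat shock protein gene with the RefSeq synonym HSP25, read 8.51, 6.33 and 6.37 in the controls against 8.22, 7.19 and 6.74. Repeat 1 was thus highest in either group, by 1.71 on average over the other 4, whereas induced minus control was 0.31 (SE 0.559). Its second probe set read 7.58, 5.60 and 5.82 against 7.12, 6.54 and 6.66, with repeat 1 highest again. In the 4 dimmer arrays both probe sets were higher in each induced sample than in either control, and in the bright pair both were lower in the induced sample. This split was made after seeing the values and was not tested, and both probe sets read the same gene on the same arrays.

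DNAJC8, a splicing-associated J-domain protein, read 10.02, 8.80 and 8.77 against 9.62, 9.15 and 8.88 and was also highest in repeat 1, by 0.92, but its second probe set ranged only from 8.70 to 9.08. DNAJA4, a cytosolic co-chaperone, was lowest in repeat 1, with 9.59, 10.28 and 10.34 against 9.83, 10.20 and 10.42. Its second probe set did the same, with 8.04, 8.76 and 8.72 against 8.07, 8.79 and 8.71. A difference of 0.5 or more between repeat 1 and the other repeats was seen in 6 of the 58 members (10.3%) and in 10.2% of all genes tested. The arrays of repeat 1 were also the brightest, and brightness and repeat cannot be told apart here.

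**Figure D4:**
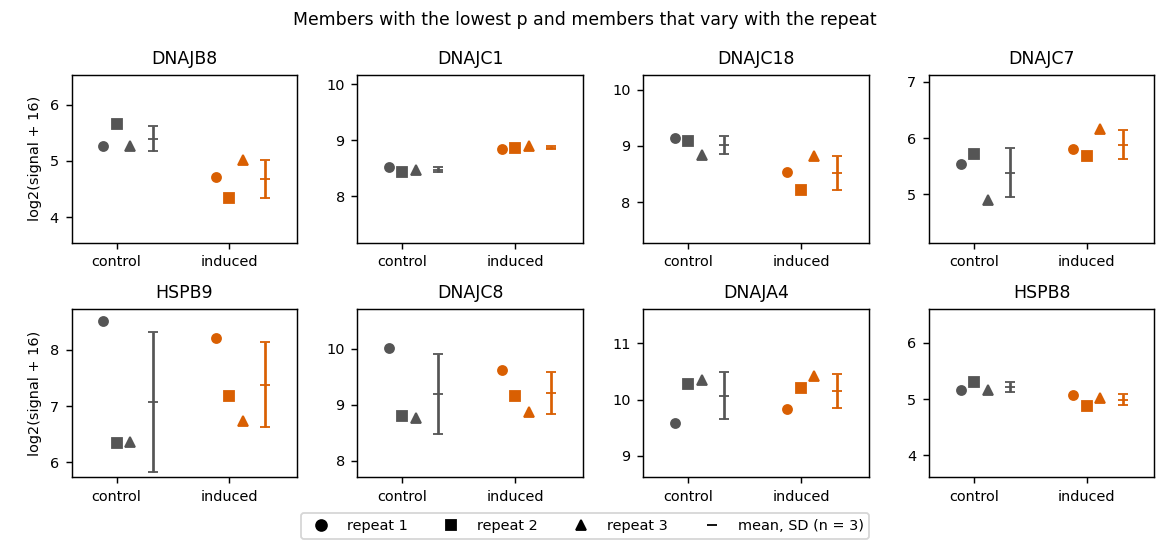
Values of 8 members by array, as log2(signal + 16) after quantile normalization, with the mean and SD of the 3 arrays beside the points and the repeat shown by the symbol. DNAJB8, DNAJC1, DNAJC18 and HSPB8 do not overlap between the groups, DNAJC7 does, HSPB9 and DNAJC8 are highest and DNAJA4 lowest in repeat 1 of both groups.

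Other genes of protein folding and of cell stress were read from 6 lists, and 0 of their 79 tested genes passed by limma over all genes (0.375% of all genes), while 11 had an unadjusted p under 0.05 (13.9%, against 11.6% of all genes). Of the list of heat shock factors, which switch on heat shock genes, HSF2, HSF3 and the binding protein HSBP1 were tested. Their log2 fold changes were 0.18, 0.07 and 0.03. HSF1 was not matched to a gene of the array. HSF4 and HSF5 lay below the filter, with at most 9.9 and 11.8 units. Of 16 partner proteins of HSP70 and HSP90, 8 lay above and 8 below the controls with a median of 0.02. PPID, a peptidyl-prolyl isomerase bound by HSP90, had 0.23 (SE 0.0877, adjusted p = 0.345), CHORDC1, an HSP90 partner, -0.29, the kinase-loading co-chaperone CDC37 0.33 and FKBP5 0.45. The 13 genes of the TRiC chaperonin, which folds actin and tubulin, and of prefoldin ran from -0.10 to 0.14 with a median of 0.07, among them CCT2 and CCT6A at 0.14 each, CCT8 at 0.07 and PFDN1 at 0.10. Of 13 genes of mitochondrial folding and quality control, the protease LONP1 had the lowest p at 0.34 (SE 0.142, adjusted p = 0.384), PAM16 of the import motor had -0.43, AFG3L2 -0.23 and HSCB -0.20, and the median was -0.01.

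The list of folding and unfolded protein response genes of the endoplasmic reticulum lay on the same side as the HSP and DNAJ members of that compartment. Of 23 genes 20 were below the controls, against 46.8% of all genes tested, with a median of -0.12. An unadjusted p under 0.05 was found for 3 (13.0%, against 11.6% of all genes). Per array the median of this list was -0.11, 0.05 and 0.06 in controls 1 to 3 and -0.19, -0.09 and -0.05 in induced samples 1 to 3. Control 1 thus again lay within the induced range. SEL1L, a subunit of the degradation complex of that membrane, had -0.66 (SE 0.203, adjusted p = 0.229), ERN1, the stress sensor also called IRE1, -0.67 (SE 0.218, adjusted p = 0.252), and CANX, the lectin chaperone calnexin, -0.14. SEC61B, of the translocation channel, had 0.19 (SE 0.0685, adjusted p = 0.324) and lay above the controls on all induced arrays. Immediate early genes, which respond within minutes to signals and handling, had a median of -0.34 over 11 tested genes. An unadjusted p under 0.05 was seen in 6 of them (54.5%, against 11.6% of all genes), all lower. Of the 11, 8 lay below the controls and 3 above (BTG2 0.35, DUSP1 0.19 and FOS 0.18). FOS reached 18.1 deposited units at most. EGR1 had -1.06 (SE 0.272, adjusted p = 0.155), CYR61 -0.70 (SE 0.183), KLF2 -0.83 and KLF6 -0.34. Per array the median of that list was -0.15, 0.09 and 0.06 in the controls and -0.39, -0.51 and -0.28 in the induced samples, without overlap. The median of the 24 cytosolic members, HSP and DNAJ genes together, was -0.02, -0.04 and 0.07 against 0.02, 0.12 and 0.03.

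**Figure D5:**
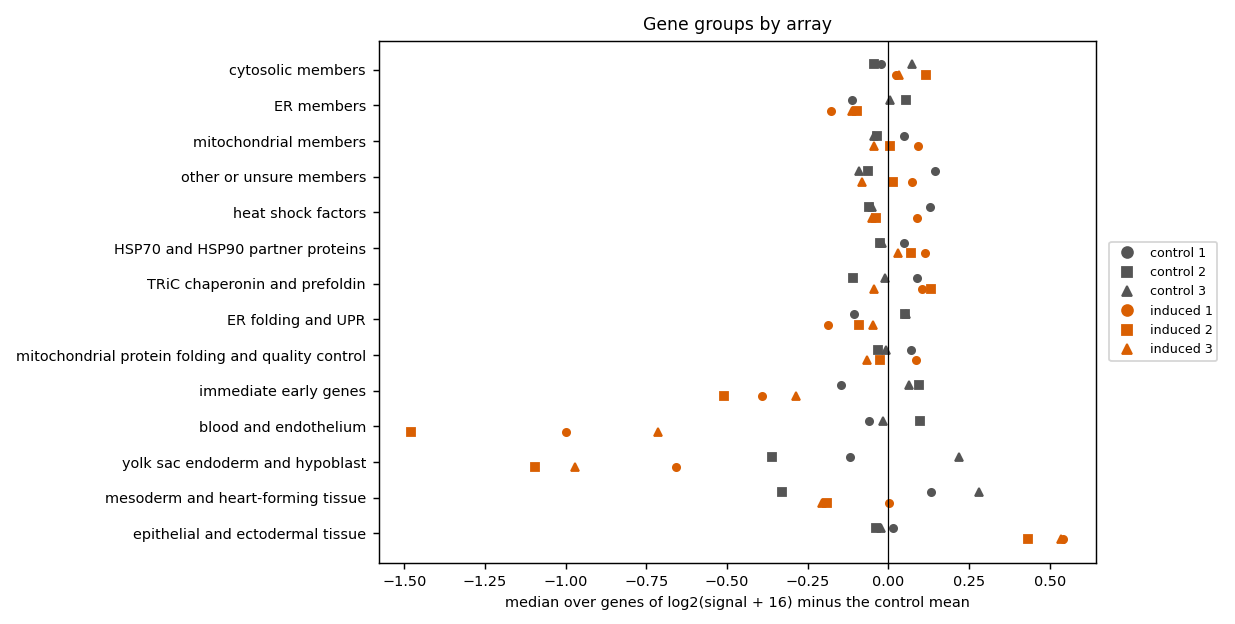
Median over the genes of each group of log2(signal + 16) minus the control mean (x axis), for each of the 6 arrays, with controls in grey and induced samples in orange. The chaperone groups lie within 0.2 of 0 on all arrays, the immediate early, blood and yolk sac endoderm lists lie lower in the induced samples and the epithelial and ectodermal list lies higher.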

How the data were processed

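RNA of 3 induced and 3 control samples was hybridized to Affymetrix arrays, 1 each. The deposited intensity values are linear signals per probe set that the authors made with MAS5, per the submitters' processing notes. The sources used here do not give its version or scaling. There were 0 other columns of sample values.

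Here 16 was added before taking log2, followed by quantile normalization. Probe sets with a mean under the 40th percentile (4.50) were then left out, keeping 22614 of 37690. The test was limma's (version 3.58.1, under R 4.3.3, with a variance trend, two-sided), adjusted by Benjamini-Hochberg over all 10138 genes kept (threshold 0.05), after a test on simulated data. A gene stands for its probe set with the highest mean. With 3 arrays a group, the smallest p of an exact permutation test is 0.1. The number of arrays limits the precision.

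Names come from GEO's platform annotation (27166 probe sets with 1 symbol, 177 with several and not named, 10347 with none), with list members also matched by RefSeq synonym. Coordinates and sequences were not used here. The members, compartments and lists were chosen with earlier results of these data known. So was the main setting of processing and testing, which is that of an earlier account of these data. Named are the main chaperones of each compartment, members with an unadjusted p under 0.05 or no overlap, the highest and lowest fold change and the highest signal of each compartment, up to 4 genes of each list and up to 3 of each marker list with the lowest p, and EPCAM and CDH1 as defining markers. Other members are named by range or as exceptions. In all, 18 alternative settings were run, and the pair of bright arrays was looked at after seeing the data.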

Additional observations from a re-analysis of the deposited data

How the results depend on the processing

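In 17 of the 18 other settings 0 member genes and 0 member probe sets passed by limma over all features. Of all genes tested, 1 to 119 passed in these settings. A count of 0 among the members thus lies near the share over all genes. The settings comprised pseudocounts of 1 and 64, no filter or the 60th percentile, no trend of the variance, median centring or no normalization, and the replicate block. The others averaged over all probe sets of a gene, left out probe sets of several transcripts, used repeats 2 and 3 alone, or left out each array in turn. Over these and the remaining setting, the lowest adjusted p of DNAJB8 was 0.0186. In the remaining setting, a replicate block without normalization, 1 member gene (DNAJB8), 1 member probe set and 2 genes of the other lists (EGR1 and KLF2, both lower) passed. There 360 of the 10176 genes tested passed in all (113 higher, 247 lower). The cause was not tested. Same-numbered samples deviated together at correlations of 0.55, -0.15 and 0.07 over 22614 probe sets, and differently numbered ones at -0.45 to 0.40. Not every sample correlated best with its own number: control 2 did so with induced 3 (0.40) and control 3 with induced 2 (0.23). The numbers were not treated as pairs in the main setting. These correlations cannot exclude pairing, because the deviations are from means of only 3 arrays a group. Whether same-numbered samples share hosts is not stated in the labels. The replicate block on normalized values raised the genes called in all from 38 to 48, with 0 members among them. Members with an unadjusted limma p under 0.05 rose there from 3 to 6 of 58. Over the other settings they numbered 1 (no normalization) to 7 (without control 1). The share of all genes at that threshold is given here for the main setting only. Without induced sample 3, 119 genes passed in all, and without induced 2, 1.

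Without normalization the compartment medians were -0.021 (cytosolic), -0.19 (endoplasmic reticulum) and -0.068 (mitochondrial), the same with the block, and with arrays centred on the median -0.0013, -0.17 and -0.048. All genes had medians of -0.04 and -0.02 there. Leaving out each array gave -0.15 to -0.078 for the endoplasmic reticulum, 0.017 to 0.099 for the cytosol, 0.0020 to 0.083 for mitochondria and -0.090 to 0.14 for other members. In the bright pair mitochondrial and other members had -0.049 and -0.13 as medians of the differences of single genes. The difference between the array medians was 0.044 and -0.069 there, so the mitochondrial sign depended on the measure. Outside the settings that change the scaling, which shift all genes, 15 of 35 named members changed sign at least once (28 of 516 values). Signals under 16 units limit what weak members, among them DNAJB8, HSPB8 and HSPA13, can show.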
